A study of Mus musculus with 9 samples.

Results

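Peritubular myoid cells are the contractile, smooth-muscle-like cells that wrap the seminiferous tubules of the testis. This account follows the transcripts of 4 families of splicing factors in such cells before and after heat: the SR proteins, the heterogeneous nuclear ribonucleoproteins (hnRNPs), the CLK kinases and the TRA2 proteins. The genes were matched by symbol (Srsf followed by a number, every symbol that starts with Hnrnp, Clk1 to Clk4, Tra2a and Tra2b). In all 37 genes matched, of 17559 genes with values. They were 11 SR proteins, 20 hnRNPs, 4 CLK kinases and 2 TRA2 proteins.

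Primary cells of C57BL/6J mice were grown at 37 °C and compared in 3 groups of 3 libraries. The control group received no treatment. The other groups were held for 30 min in a water bath at 42 °C and collected 1 h or 6 h after heat. Replicates carry numbers, and no label ties a number to an animal or a culture, so each p-value below rests on library-to-library spread that could be purely technical. The age of the mice is not given in the sources used here.

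SR proteins carry long runs of serine and arginine and bind exonic enhancers, where they help the spliceosome choose exons. CLK kinases phosphorylate these runs in the nucleus and so release SR proteins from nuclear speckles, while many hnRNPs bind silencers and work against exon choice. TRA2 proteins are SR-like activators. Heat is known to dephosphorylate SR proteins, Srsf10 among them, and to halt splicing for a time, and many of these genes limit their own messenger RNA through exons that send it to nonsense-mediated decay. Transcripts of Clk1 and Clk4 are known to be held in the nucleus with introns still in place. A gene-level value counts such forms together with the coding ones, so the values below are of total transcript, not of protein or of phosphorylation.

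Values are FPKM, read counts normalised for transcript length and library size, which allow levels of different genes to be compared. Each library held an estimated 18880000 to 19950000 reads. Heat was visible in every treated library, as Hspa1a, the inducible HSP70, stood at 6.92 to 12.29 FPKM in control, 1228 to 1794 FPKM at 1 h and 27.07 to 49.30 FPKM at 6 h. All 8 contractile markers of myoid cells had values, and their sum was 4287 to 5317 FPKM in control, 4125 to 4394 at 1 h and 3680 to 5436 at 6 h. Transcripts of other testicular cells were also present. The sum of 8 Sertoli markers was 351.0, 286.8 and 3100 FPKM in controls 1, 2 and 3, 247.5 to 536.1 at 1 h and 387.8 to 497.2 at 6 h, while Fshr stayed at or below 0.09 FPKM. The sum of 6 macrophage markers was 30.51 to 81.46 FPKM in control, 36.77 to 239.0 at 1 h and 37.61 to 249.1 at 6 h. The sum of 6 Leydig markers was 2138, 2084 and 910.3 FPKM in controls 1, 2 and 3. It was 871.9 to 2030 at 1 h and 1400 to 2031 at 6 h, with Cyp17a1 at 0 to 0.11 FPKM. The low sum of control 3 came from Insl3, at 1607.02, 1586.80 and 181.32 FPKM in controls 1, 2 and 3. Among the controls Star (106.02, 42.21 and 210.77) and Cyp11a1 (346.14, 386.80 and 451.55) were highest in the third. Hsd3b1 stood at 78.80, 68.24 and 66.62. In bulk RNA, fewer cells of a type and less RNA per cell cannot be told apart.

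Of the 37 genes, 36 passed the filter of at least 1 FPKM in at least 3 libraries, and the SR protein gene Srsf12 did not, at 0.07 to 0.29 FPKM. In every library 35 of the 36 stood at 5 FPKM or more. The 37 genes together made up 0.559% to 0.703% of all FPKM in control, 0.546% to 0.609% at 1 h and 0.479% to 0.617% at 6 h. hnRNPs were the most abundant family, with a summed level of 2181 ± 388 FPKM in control (SD, n = 3), beside 618 ± 126 for SR proteins, 97.5 ± 26.6 for TRA2 and 52.5 ± 8.5 for CLK. For 28 of the 36 genes the highest of the 9 libraries was under 2 times the lowest.

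Within the hnRNPs the control means spanned from 7.02 FPKM for Hnrnph3 to 266 for Hnrnpa1. Hnrnpa1, a splicing repressor that also shuttles messenger RNA to the cytoplasm, stood at 251.78, 374.94 and 172.03 FPKM in control, 224.27, 270.97 and 226.66 at 1 h and 189.13, 239.48 and 239.13 at 6 h. Hnrnpk, which binds C-rich RNA, stood at 240.36, 250.72 and 196.28 FPKM in control, 210.11, 218.44 and 202.29 at 1 h and 217.44, 207.70 and 219.31 at 6 h. The ranges of these leaders overlapped in control, as did those of Hnrnpab, Hnrnpa2b1, Hnrnpf and Hnrnpa3, whose control means were 219, 215, 206 and 195 FPKM, so the order among the top 6 is not resolved. Hnrnpa1 has many processed pseudogenes, and how reads were divided among such copies is not recorded in the table. Among SR proteins Srsf5 led with a control mean of 147 FPKM, followed by Srsf2 and Srsf3 at 109 and 94.1, and Srsf4 was the lowest of those tested at 23.0. The ranges of Srsf5 and Srsf2 overlapped in control as well. Clk1 and Clk3 were the most abundant kinases, at 20.2 and 18.5 FPKM in control with overlapping ranges, and Clk4 and Clk2 followed at 8.99 and 4.75, with no overlap between any of the 3 levels so formed. Tra2b stood above Tra2a in every library, by 1.21 to 1.64 times.

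**Figure D1:**
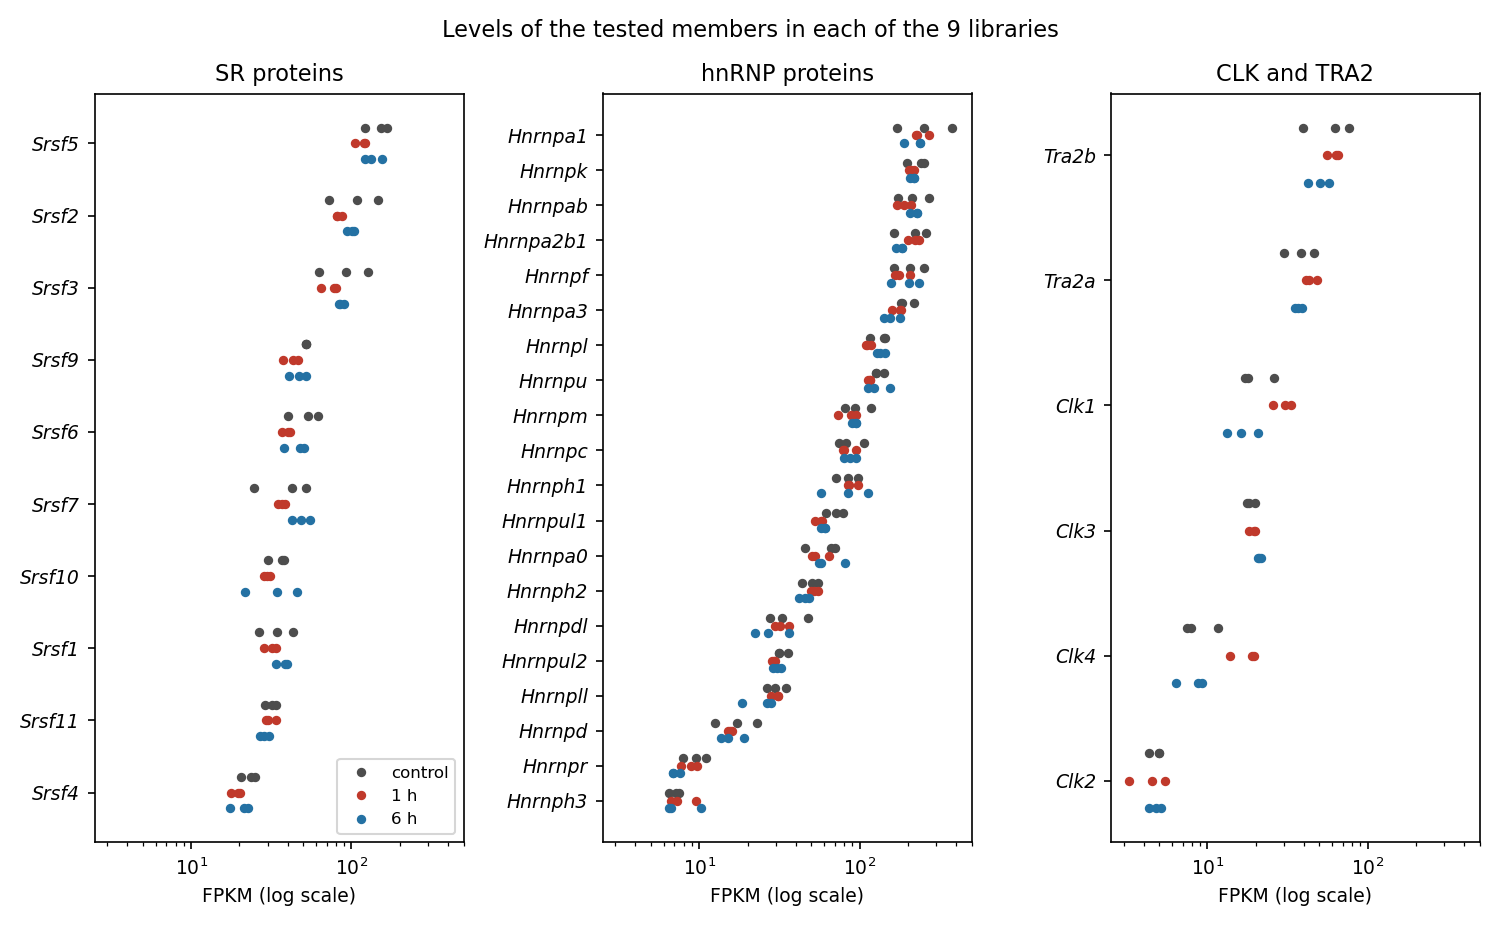
Levels of the 36 tested genes by family, in FPKM on a log axis. Each point is 1 library, coloured by group, and genes are ordered by their control mean. Within a gene the points of the 3 groups mostly overlap, and Clk4 is the gene whose 1 h points lie apart from both other groups.

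The first question was which of these transcripts differed from control 1 h after heat. None of the 36 passed the test over all genes (0 higher and 0 lower, limma, adjusted p below 0.05), where 0.157% of the 11460 genes tested were called higher and 0% lower. With median-of-ratios scaling, which sets the libraries' typical gene equal, the members again gave 0, and 0.227% of all genes were called higher. At an unadjusted p below 0.05, 2 members were higher (Clk1 and Clk4) and 1 lower (Hnrnpul1), beside 2.76% and 8.05% of all genes tested. After scaling 3 were higher (Tra2a as well) and 0 lower, beside 4.6% and 2.3%. Without regard to the test, Clk4 alone lay above all controls (2.78% of the members, beside 4.49% of all genes), and Srsf4, Srsf9, Hnrnpu, Hnrnpul1 and Hnrnpul2 lay below all of them (13.9%, beside 21.4%). After scaling 7 lay above, namely Clk1, Clk3, Clk4, Tra2a, Srsf11, Hnrnph2 and Hnrnph3 (19.4%, beside 9.11%), and 0 below (beside 6.99%). The 2 kinases had the largest changes of all members in absolute size. The 95% interval of the log2 change lay within a 2-fold change either way for 34 of the 36, and only those of Clk1 and Clk4 reached beyond it.

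Clk4 lies on chromosome 11 (GRCm38, 51263114 to 51281770, plus strand). It stood at 7.88, 7.47 and 11.62 FPKM in control, 13.75, 18.98 and 19.62 at 1 h and 8.73, 6.41 and 9.20 at 6 h. All 3 libraries at 1 h lay above all 3 controls and above all 3 libraries at 6 h. The mean at 1 h was 1.94 times that of control, a log2 change of 0.89 (SE 0.22, 95% interval 0.40 to 1.38) with a limma adjusted p of 0.238 (unadjusted 0.0024). From 1 h to 6 h its log2 change was -1.02 (SE 0.22, 95% interval -1.50 to -0.53), with a limma adjusted p of 0.121 (unadjusted 0.00103). Against control, the log2 change at 6 h was -0.12 (95% interval -0.61 to 0.37), with a sign that turned to 0.06 without control 3 and to 0.02 without replicate 2 at 6 h.

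Clk1, the best studied of these kinases, lies on chromosome 1 (58411988 to 58424088, minus strand). It stood at 17.80, 17.04 and 25.91 FPKM in control, 30.48, 33.25 and 25.71 at 1 h and 13.19, 16.18 and 20.75 at 6 h. Its 1 h libraries overlapped with control only through replicate 3 of each group, at 25.91 and 25.71, and they lay above all 6 h libraries. The log2 change at 1 h was 0.55 (SE 0.21, 95% interval 0.07 to 1.03) with a limma adjusted p of 0.430, and from 1 h to 6 h it was -0.81 (SE 0.21, 95% interval -1.29 to -0.34) with a limma adjusted p of 0.189. Of the 3 controls the third had the highest level of both kinases. It is the library that stood apart from the other controls in Sertoli transcripts and in the Leydig transcript Insl3. The part of those cells in the kinase levels was not tested. Without that library the log2 change at 1 h was 1.07 for Clk4 and 0.735 for Clk1, and with median-of-ratios scaling 1.06 and 0.72. Leaving out control 2 instead gave 0.79 and 0.45, the lowest values with any single library left out.

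Clk3 and Clk2 had smaller differences. Clk3 stood at 18.13, 17.63 and 19.76 FPKM in control, 19.72, 19.49 and 18.11 at 1 h and 21.09, 21.47 and 20.79 at 6 h. It had the smallest spread of any member, its highest library being 1.22 times its lowest, and its 3 libraries at 6 h lay above all others by a small margin (log2 change 0.18 against control, limma adjusted p 0.877). Clk2 stood at 4.99, 4.31 and 4.96 FPKM in control, 5.46, 3.22 and 4.54 at 1 h and 4.34, 4.79 and 5.12 at 6 h, with all 3 groups overlapping. Setting one kinase against another inside a library removes any scaling of the whole library. The ratio of Clk4 to Clk3 was 0.435, 0.424 and 0.588 in control, 0.697, 0.974 and 1.08 at 1 h and 0.414, 0.299 and 0.443 at 6 h. The ratio of Clk1 to Clk3 was 0.982, 0.967 and 1.31 in control, 1.55, 1.71 and 1.42 at 1 h and 0.625, 0.754 and 0.998 at 6 h. In both ratios the 1 h libraries lay above those of the other groups without overlap, although the FPKM of Clk1 overlapped with control. The higher Clk3 at 6 h lowers the ratios there. No share over all genes was computed for such ratios, so this separation has no background beside it. Clk3 was chosen as the reference after its small spread was seen.

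**Figure D2:**
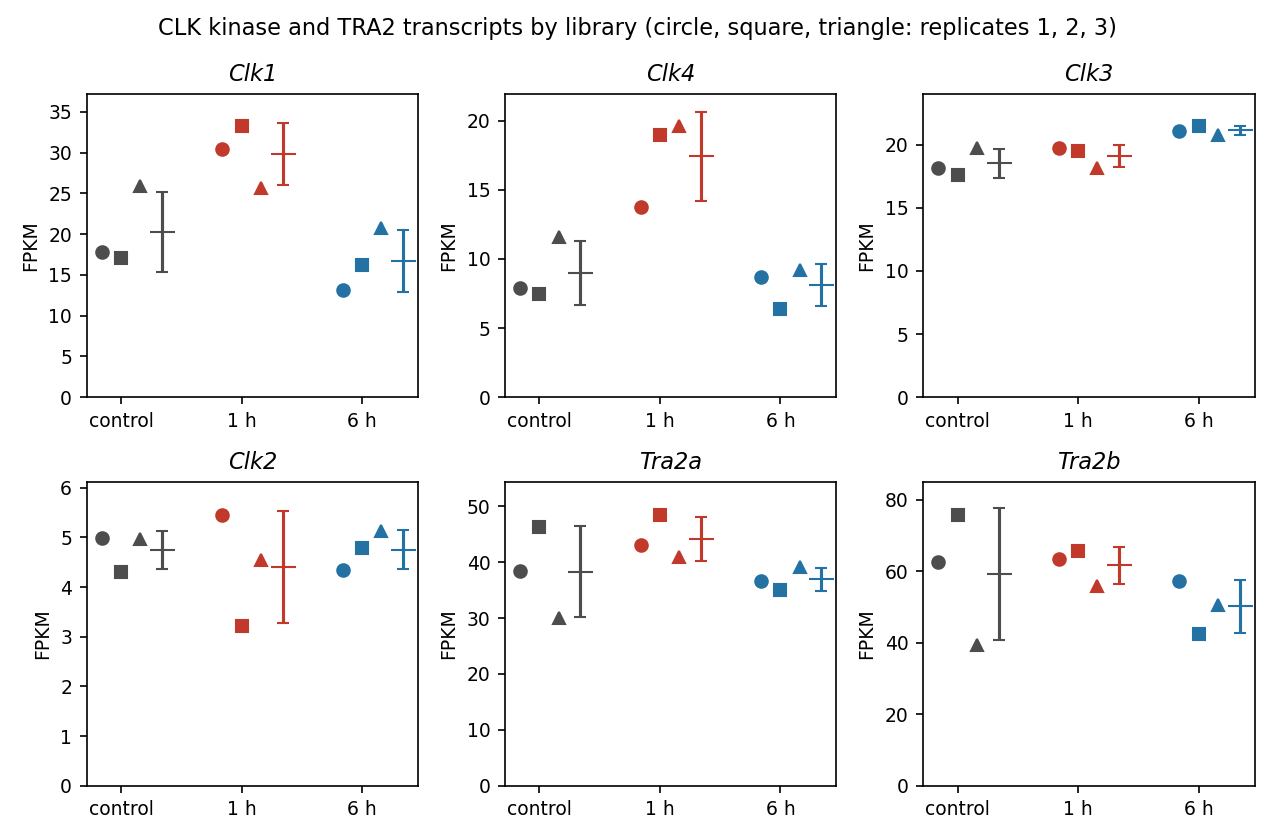
FPKM of the 4 CLK kinases and 2 TRA2 genes, 1 panel each. Symbols are libraries (circle, square and triangle for replicates 1, 2 and 3), and the bar beside them is the mean with its SD (n = 3). For Clk4 the 1 h points, 13.75 to 19.62, lie above those of control and 6 h, while Clk3 stays between 17.63 and 21.47 in all 9 libraries.

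The promoter windows of these genes were read from RefSeq (build GRCm38.p6, the assembly also called mm10), from 250 bases before to 50 bases after each annotated start. Of the 37 genes 34 had an entry, with 46 windows. Clk1, Hnrnpll and Hnrnpul2 had none, so the Clk1 promoter was not searched. The Clk4 window, chr11:51262864-51263163 on the plus strand, is shown because that gene had the largest change at 1 h. Its capitals mark the 8-base cyclic AMP response element TGACGTCA, 65 bases before the start.
Clk4: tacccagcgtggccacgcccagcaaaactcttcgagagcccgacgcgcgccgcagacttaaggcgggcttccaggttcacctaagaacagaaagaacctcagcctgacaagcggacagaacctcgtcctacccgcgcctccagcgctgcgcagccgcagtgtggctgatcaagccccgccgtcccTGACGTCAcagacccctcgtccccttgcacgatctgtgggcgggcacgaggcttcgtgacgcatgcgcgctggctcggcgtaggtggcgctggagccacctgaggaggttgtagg

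The heat-shock element, the letters to which heat-shock factors bind, was searched as the pairs GAANNTTC and TTCNNGAA and as the runs of 3 units GAANNTTCNNGAA and TTCNNGAANNTTC. Each pair reads the same on both strands, as does TGACGTCA, each run of 3 is the other's reverse complement, and a run of 3 contains both pairs. Either pair was in 6 of the 46 windows (13%), beside 12.5% of the 17432 windows of all genes with values. A run of 3 was in 3 windows of 2 genes, Hnrnpa2b1 and Tra2b, beside 0.482% of all windows. The 2 windows of Hnrnpa2b1 overlap and share the same match. The median GC content was 66.8% in the members' windows and 58.7% in all windows. TGACGTCA was in 2 windows, of Clk4 and Tra2a, beside 2.56% of all windows. These motifs were picked with the results known, and a match is a description of the letters only. Stretches of 80 bases around the match are given below for the other 3 genes, all on the minus strand, with the match in capitals. They lie at chr6:51469838-51469917 for Hnrnpa2b1, chr16:22266167-22266246 for Tra2b and chr6:49264036-49264115 for Tra2a.
Hnrnpa2b1: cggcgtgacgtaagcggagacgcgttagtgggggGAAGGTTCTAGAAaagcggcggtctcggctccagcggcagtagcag
Tra2b: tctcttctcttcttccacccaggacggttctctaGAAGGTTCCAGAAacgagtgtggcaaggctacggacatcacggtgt
Tra2a: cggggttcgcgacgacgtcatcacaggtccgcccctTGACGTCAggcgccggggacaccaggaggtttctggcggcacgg
The match begins 207 bases before the RefSeq start in Tra2b and 27 in Tra2a. Hnrnpa2b1 has 2 RefSeq starts, and its match begins 38 bases before one and 11 after the other. The log2 changes at 1 h were 0.04 for Hnrnpa2b1 and 0.10 for Tra2b, and the part of these letters in them was not tested. The window of Hspa1a held 1 pair, GAAGATTC, and no run of 3.

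Tra2a stood at 38.51, 46.28 and 30.00 FPKM in control, 43.04, 48.54 and 41.01 at 1 h and 36.66, 35.06 and 39.16 at 6 h. The 1 h libraries overlapped with control but lay above all 6 h libraries. Its log2 change was 0.22 at 1 h against control (95% interval -0.16 to 0.60) and -0.25 from 1 h to 6 h (-0.63 to 0.13). Tra2b stood at 62.51, 75.90 and 39.24 FPKM in control, 63.51, 65.67 and 55.80 at 1 h and 57.40, 42.56 and 50.65 at 6 h, with controls that spanned both other groups. Its log2 changes for the same comparisons were 0.10 (-0.41 to 0.62) and -0.30 (-0.82 to 0.22). At 1 h the change of Tra2a was 0.06 without control 3 and 0.37 without control 2, and that of Tra2b -0.16 and 0.31. From 1 h to 6 h the change of Tra2b was -0.19 without replicate 2 at 6 h. Neither gene passed in any comparison.

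SR proteins stood on the other side of 0 from Clk1 and Clk4 at 1 h. All 10 tested had a log2 change below 0 there, from -0.37 to -0.03 with a median of -0.27. Most genes did the same, as 76.2% of all genes tested lay below 0 and their median was -0.17. Median-of-ratios scaling moved that median to -0.01, and then 7 of the 10 lay below 0, with a median of -0.10. No SR protein reached an unadjusted p below 0.05 by either scaling. Srsf4 and Srsf9 lay below all controls in all 3 libraries at 1 h, 2 of 10, beside 21.4% of all genes tested, and after scaling none did. Srsf4 stood at 23.57, 25.13 and 20.41 FPKM in control, 19.49, 20.04 and 17.80 at 1 h and 22.71, 17.57 and 21.31 at 6 h.

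Srsf6, a regulator of exon choice, had the largest change of the family at 1 h. It stood at 53.83, 61.85 and 40.41 FPKM in control, 40.47, 41.11 and 36.74 at 1 h and 50.75, 37.69 and 47.44 at 6 h, and control 3 lay among the 1 h libraries. Its log2 change was -0.37 (SE 0.18, 95% interval -0.78 to 0.04), with a limma adjusted p of 0.497. That change was -0.24 without control 2, -0.54 without control 3 and -0.20 after median-of-ratios scaling. Srsf5 stood at 166.63, 152.28 and 122.04 FPKM in control, 122.15, 105.14 and 120.37 at 1 h and 154.66, 121.63 and 131.73 at 6 h. Its log2 change at 1 h was -0.33, or -0.16 after scaling, and again control 3 touched the 1 h range.

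Srsf2, a general splicing factor also known as SC35, had widely spread controls. It stood at 107.64, 147.34 and 72.19 FPKM in control but at 81.76, 87.69 and 80.89 at 1 h and 100.55, 94.08 and 103.03 at 6 h. The heated groups were tight and did not overlap with each other, while the controls spanned both of them. Its log2 change was -0.32 at 1 h against control (95% interval -0.83 to 0.18) and 0.25 from 1 h to 6 h (-0.26 to 0.76). The first of these was -0.08 without control 2, -0.59 without control 3 and -0.15 after median-of-ratios scaling. Srsf9 was the reverse, with controls at 52.09, 52.17 and 51.91 FPKM, 1 h libraries at 37.48, 43.10 and 46.42 and 6 h libraries at 51.94, 40.59 and 46.82. Its log2 change at 1 h was -0.30 (SE 0.14, 95% interval -0.61 to 0.02), with a limma adjusted p of 0.486, and -0.12 after scaling.

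At 6 h against control, 0 of the 36 genes passed by limma, where 0% of all genes were called in either direction. Only Hnrnpr, which was lower, had an unadjusted p under 0.05, beside 1.27% of all genes higher and 3.35% lower, and after scaling no member had one (beside 1.75% and 2.72%). Clk3 lay above all controls (2.78%, beside 1.89% of all genes), and Hnrnpa3, Hnrnpr and Hnrnpul1 lay below all of them (8.33%, beside 5.32%). After scaling Clk3 lay above and Hnrnpr below (beside 2.98% and 4.21%). All 36 intervals lay within a 2-fold change either way. Srsf7, which also serves messenger RNA export, had the largest positive log2 change, 0.34 (95% interval -0.21 to 0.88), at 42.80, 51.81 and 24.83 FPKM in control, 36.92, 38.47 and 34.78 at 1 h and 54.93, 42.32 and 48.68 at 6 h. Its control 3 was the lowest of the 9 libraries, and without it the log2 change was 0.04, while without control 2 it was 0.55.

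The third comparison asked how the levels differed between the 2 times after heat, and here too 0 of the 36 passed by limma, beside 0% of all genes called higher and 0.279% called lower (0.384% after scaling). Clk1 and Clk4, both lower, were the 2 members with an unadjusted p under 0.05, beside 8.45% of all genes higher and 3.19% lower. After scaling there were 6, all lower, with Tra2a, Hnrnph2, Hnrnpll and Hnrnpr added, beside 3.83% and 5.76%. Without regard to the test, 5 members at 6 h lay above all 1 h libraries (13.9%, beside 15.2% of all genes tested) and 6 lay below all of them (16.7%, beside 4.97%). The 5 were Srsf2, Srsf3, Srsf7, Clk3 and Hnrnpl, and the 6 were Clk1, Clk4, Tra2a, Hnrnpa2b1, Hnrnph2 and Hnrnpr. After median-of-ratios scaling 3 lay above (8.33%) and 10 below (27.8%), beside 8.89% and 9.16% of all genes. This comparison and the first share the 1 h libraries, so a low or high 1 h value enters both. Of the SR proteins 9 of 10 had a log2 change above 0 from 1 h to 6 h, with a median of 0.20 beside 0.10 for all genes, and 7 of 10 after scaling, with a median of 0.07 beside -0.01. Srsf7 had the largest of these changes, 0.39 (95% interval -0.15 to 0.93). Srsf1, the founding member of the family, stood at 34.21, 42.95 and 26.44 FPKM in control, 31.88, 33.91 and 28.57 at 1 h and 39.36, 33.73 and 38.28 at 6 h, a log2 change of 0.23 between the times.

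The balance of both large families can be read from their summed levels within each library. The SR sum was 29.7%, 28.4% and 26.7% of the hnRNP sum in control, 26.8%, 24.1% and 25.2% at 1 h and 30.45%, 27.0% and 29.3% at 6 h. The 1 h values were lower than the 6 h values in every library, narrowly at 26.84% and 26.97% where they came nearest. They overlapped with control only through control 3. No background from other sets of genes was computed. Srsf5, Srsf2 and Srsf3 weigh most in the SR sum, with control means of 147, 109 and 94.1 FPKM out of 618. Between same-numbered libraries of control and 1 h, a pairing that the labels do not state, the share was lower at 1 h in all 3 pairs. Single genes can be read the same way, and 12 of the 36 members were lower in all 3 pairs (33.3%, beside 38.2% of all genes tested), Srsf5, Srsf6 and Hnrnpl among them, while Clk4 and Tra2a were higher in all 3 (5.56%, beside 8.18%). After median-of-ratios scaling 1 was lower, Hnrnpul1 (beside 16.4% of all genes), and 10 were higher, Clk1, Clk3, Clk4 and Tra2a among them (27.8%, beside 17%). An exact test of 3 against 3 libraries cannot give a two-sided p below 0.1, and none was made.

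At 1 h against control 16 of 20 hnRNPs had a log2 change below 0, with a median of -0.11 beside -0.17 for all genes tested, and the family's median turned to 0.06 after median-of-ratios scaling, when 15 of 20 lay above 0 (75%, beside 47.3% of all genes). Over all 36 members the split went from 9 above and 27 below 0 to 24 above and 12 below by that scaling, while the share of all genes above 0 went from 23.8% to 47.3%. Hnrnpul1, a relative of the nuclear scaffold protein hnRNP U, had the largest change of the family at 1 h. It stood at 61.75, 71.69 and 78.33 FPKM in control, 52.39, 57.87 and 57.25 at 1 h and 60.85, 60.77 and 57.42 at 6 h, so that the controls lay above both heated groups. The log2 change at 1 h was -0.33 (SE 0.13, 95% interval -0.62 to -0.03) with a limma adjusted p of 0.439, and -0.15 after scaling.

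Hnrnpl, which binds CA repeats, stood at 143.70, 142.64 and 115.61 FPKM in control, 111.04, 117.72 and 109.00 at 1 h and 128.74, 133.83 and 144.94 at 6 h. It was lowest at 1 h, where it met control 3, and its 6 h libraries lay above those of 1 h (log2 change 0.27, 95% interval -0.04 to 0.58). Hnrnpu itself stood at 127.27, 142.04 and 126.21 FPKM in control, 116.30, 116.08 and 113.04 at 1 h and 155.58, 112.43 and 123.68 at 6 h. The 1 h values were below every control, with a log2 change of -0.19 (95% interval -0.53 to 0.15), a difference near the median of all genes.

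Hnrnpr had the lowest unadjusted p of the members at 6 h against control, 0.0448, with a limma adjusted p of 0.877. It stood at 9.59, 10.98 and 7.94 FPKM in control, 8.82, 9.72 and 7.65 at 1 h and 6.86, 6.82 and 7.56 at 6 h, so the 6 h libraries were below all others (log2 change against control -0.37, 95% interval -0.73 to -0.01). Hnrnpa2b1, known for sorting RNAs as well as splicing, stood at 223.14, 259.70 and 163.35 FPKM in control, 199.81, 233.64 and 221.82 at 1 h and 169.17, 184.34 and 183.01 at 6 h. Its 6 h libraries were below all of those at 1 h and overlapped with control only through control 3. The log2 change between the times was -0.29 (95% interval -0.70 to 0.13).

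Hnrnpdl and Hnrnpll each had their lowest value in replicate 2 at 6 h. Hnrnpdl, a relative of hnRNP D, stood at 33.02, 47.47 and 27.66 FPKM in control, 31.89, 36.16 and 29.82 at 1 h and 36.18, 22.22 and 26.72 at 6 h. Hnrnpll, a regulator of exon choice in lymphocytes, stood at 29.49, 34.72 and 26.58 FPKM in control, 28.12, 31.05 and 30.89 at 1 h and 26.29, 18.46 and 28.13 at 6 h. The log2 changes at 6 h against control were -0.33 and -0.32, and without that replicate -0.17 and -0.14. For Hnrnpdl the change was also -0.12 without control 2, -0.495 without control 3 and -0.51 without replicate 1 at 6 h. Hnrnph3, the least abundant hnRNP, stood at 7.12, 6.47 and 7.48 FPKM in control, 6.67, 7.25 and 9.57 at 1 h and 10.31, 6.44 and 6.64 at 6 h. The other 10 hnRNPs had log2 changes between -0.29 and 0.22 in all 3 comparisons.

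**Figure D3:**
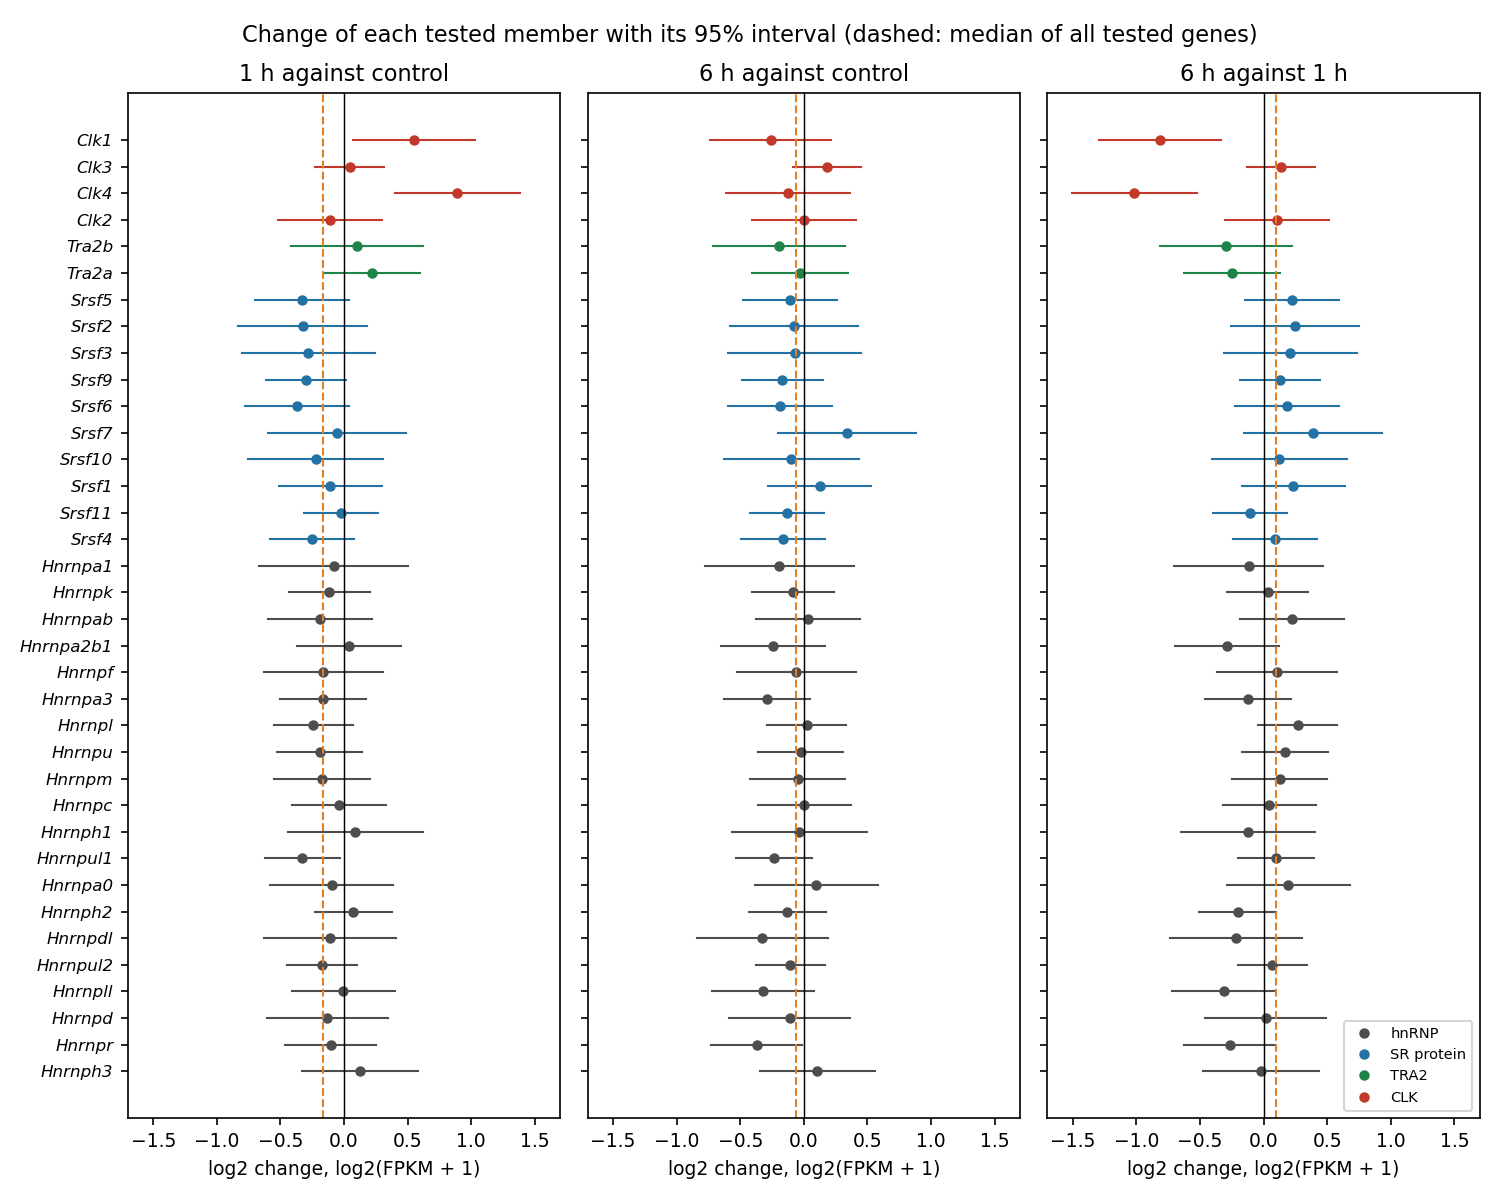
Log2 change of each of the 36 tested genes in 3 comparisons, on the log2(FPKM + 1) scale. Points are the fitted changes, lines their 95% intervals, colours the families, and the dashed line is the median of all tested genes (-0.17, -0.06 and 0.10). Clk1 and Clk4 stand to the right at 1 h and to the left for 6 h against 1 h, and most other intervals include 0.

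The members varied together across the controls. For 27 of the 36 control 2 was the highest of the 3 controls (75%, beside 36.2% of all genes tested), and for 27 control 3 was the lowest (75%, beside 37.3%). The median log2 ratio of control 2 to control 3 was 0.40 over the members and -0.01 over all genes tested. The highest control was the third for Clk1 and Clk4, and also for Clk3, Hnrnph3, Hnrnpul1 and Hnrnpul2. Control 2 held the highest value of all 9 libraries for 20 members (55.6%, beside 17.8% of all genes) and control 3 the lowest for 12 (33.3%, beside 11.4%). Replicate 2 at 6 h held the lowest for 11 (30.6%), near the 26.4% of all genes. The sum of Sertoli markers was highest in control 3, at 3100 FPKM. That library had the lowest sum of Leydig markers of the controls, at 910.3 FPKM. The low sum followed Insl3, while Star and Cyp11a1 were at their highest of the controls there. The part of those cells in the members' low values was not tested. The median log2 change of the members at 1 h was -0.11 with all libraries, -0.24 without control 3 and 0.00 without control 2. Replicates of the typical member had an SD of 0.24 log2 units in control, 0.12 at 1 h and 0.17 at 6 h, beside 0.24, 0.15 and 0.28 over all genes tested.

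**Figure D4:**
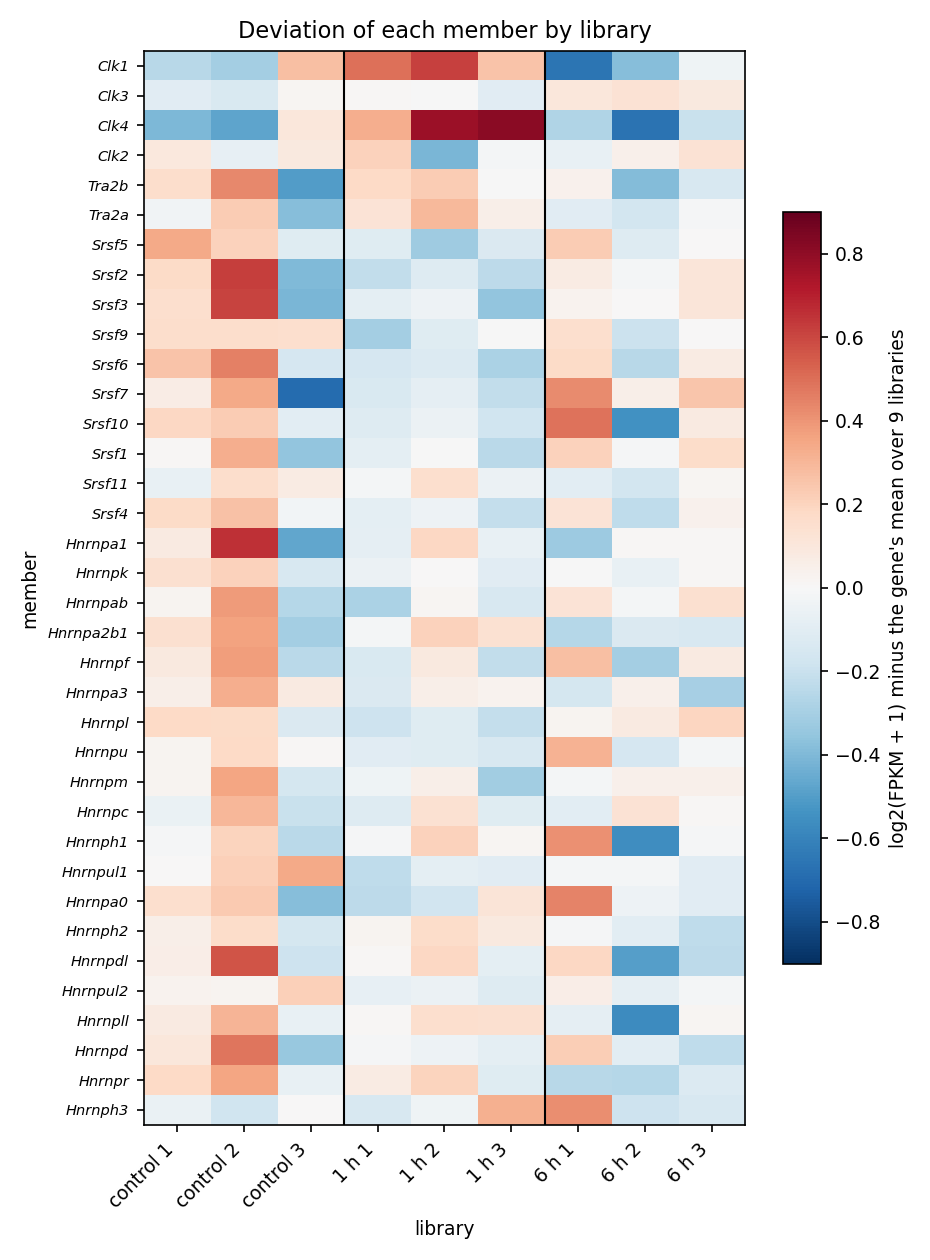
Deviation of each tested gene (rows) from its own mean over 9 libraries (columns), in log2(FPKM + 1) units, red above and blue below. The column of control 2 is mostly red and that of control 3 mostly blue. Clk1 and Clk4 are among the genes that go the other way in these columns, and they are reddest at 1 h.

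The authors' deposited table gives its own DEGseq comparison of the groups. At a q-value of at most 0.001, the authors' deposited table lists 27 of the 37 members at 1 h against control (4 higher, 23 lower). That is 73% of the members in the authors' deposited table, beside 55.2% of all its genes with a q-value. For 6 h against control and 6 h against 1 h the authors' deposited table lists 26 and 30 members. Those are 70.3% and 81.1% in the authors' deposited table, beside 44.1% and 48.7% of all genes. With a change of at least 2-fold as well, the authors' deposited table keeps 0, 0 and 1 members, beside 7.84%, 6.45% and 4.5% of all its genes. The 1 is Clk4 from 1 h to 6 h, with a log2 fold change of -1.12 in the authors' deposited table. By limma 0 members passed in any comparison, and the difference from the authors' deposited q-values was not examined.

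Other genes of the splicing machinery were read from 6 lists with 128 tested genes. By limma 0 passed in any comparison. An unadjusted p under 0.05 was reached at 1 h by 10 genes, all lower, at 6 h by 3, all lower, and from 1 h to 6 h by 11, all higher. These are 7.81%, 2.34% and 8.59% of the 128, beside 8.05%, 3.35% and 8.45% of all genes tested, and so near the background. Their median log2 change at 1 h was -0.19, beside -0.17 for all genes. At 1 h 34 of the 128 lay below all controls and 0 above, beside 21.4% and 4.49% of all genes. From 1 h to 6 h 34 lay above all 1 h libraries and 3 below, beside 15.2% and 4.97%. Among 13 kinases, phosphatases and the import receptor of SR proteins the largest changes at 1 h were those of Ppp1cc, a catalytic subunit of protein phosphatase 1, and of the kinase gene Dyrk1b, with log2 changes of -0.49 and -0.48 (limma adjusted p 0.513 and 0.572). The median of that list was -0.25. Among 29 SR-related proteins, 15 lay below all controls at 1 h (beside 21.4% of all genes) and 0 above, and the median was -0.22. The other lists had fewer below all controls, with 4 of the 13 regulators of SR proteins and 4 of 34 core spliceosome genes. Further hnRNP genes gave 2 of 12, other splicing regulators 6 of 25 and factors of nonsense-mediated decay 3 of 15. The lists were read on the deposited values only. After median-of-ratios scaling, where they were not counted, the share of all genes below the controls was 6.99%. The largest changes among the SR-related proteins were those of Rsrp1 and of Sfswap, a splicing regulator related to a fly gene. Their log2 changes were 0.62 and -0.52 (limma adjusted p 0.522 and 0.392). Rsrp1 stood at 36.81, 27.51 and 63.58 FPKM in control, 60.87, 69.90 and 56.66 at 1 h and 22.62, 57.68 and 44.73 at 6 h.

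Of 12 further hnRNP genes with other names, Pcbp4, which binds C-rich RNA, had the largest change at 1 h. It stood at 25.54, 33.81 and 37.61 FPKM in control, 20.53, 21.75 and 18.63 at 1 h and 27.22, 29.79 and 27.44 at 6 h, a log2 change of -0.63 (SE 0.16) with a limma adjusted p of 0.259. Syncrip, or hnRNP Q, followed with -0.38. The 34 core spliceosome genes had a median of -0.16 at 1 h and 0.28 from 1 h to 6 h. Between the times 18 lay above all 1 h libraries (beside 15.2% of all genes) and 0 below. In the other lists 2 of 12 further hnRNP genes, 6 of 29 SR-related proteins and 0 of 13 regulators of SR proteins lay above. So did 4 of 25 other splicing regulators and 4 of 15 factors of nonsense-mediated decay. After scaling, where the lists were not counted, the share of all genes above was 8.89%. Prpf31 and Prpf4, both of the tri-snRNP, had the largest changes at 1 h, -0.43 and -0.38 (limma adjusted p 0.439 and 0.557). Of 25 other splicing regulators, Esrp2, known from epithelia, and Rbpms2, known from smooth muscle, had log2 changes of -0.58 and -0.54 (limma adjusted p 0.325 and 0.426). Of 15 factors of nonsense-mediated decay, Smg5 and Upf1 had the largest, -0.30 and -0.29, and the median was -0.20.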

How the data were processed

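RNA of 9 libraries was analysed from the authors' deposited table, whose per-library values are FPKM per the file headers, with 2 decimals. RSEM 1.2.12, HISAT2 2.0.4, Bowtie2 2.2.5 and the mm10 build are listed, without roles, in the submitters' processing notes. The same table holds the authors' deposited log2 fold changes and q-values from DEGseq, per the file headers, and gene and transcript lengths, of which the deposited longest transcript length served the depth estimate. Depth was estimated from low values of genes with 1 transcript of 400 to 1200 bases (length offset 35 bases), which lay within 0.2 of a whole read for 89.2% to 93.6% of values, where 40% would with an even spread. Counting error was not modelled.

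The 11460 genes that reached 1 FPKM in 3 or more libraries entered one limma fit (version 3.58.1, R 4.3.3) of log2(FPKM + 1) with trended variance, all 9 libraries and 3 group means, two-sided, with Benjamini-Hochberg adjustment over all genes. A fold change on that scale understates the change of low genes. The fit was tested on simulated data. Deviations of same-numbered control and 1 h libraries correlated at 0.19, 0.15 and 0.26. Control 2 correlated more with replicate 1 at 1 h, at 0.17, than with replicate 2. Same-numbered libraries of control and 1 h were read as pairs only as a description, as the labels do not say so. The main fit held no replicate block. For 6 h the correlations with same-numbered libraries were -0.35 to 0.04.

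Members and lists were chosen with earlier results of these data known. Members named with all values were the CLK and TRA2 genes, the 3 largest changes per family and comparison, and the highest 2 and lowest by control mean in each large family. Of each related list the 2 largest changes at 1 h are named. Alternatives were another pseudocount, other filters, median-of-ratios or quantile scaling, fits of 2 groups, a replicate block, no variance trend and each library left out.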

Additional observations from a re-analysis of the deposited data

How the results depend on the processing

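Under 19 alternatives, 2 of them added after seeing the data (control 3 and 6 h replicate 2 left out together, and 2 groups with a replicate block), 0 members and 0 related genes were called in each of the 3 comparisons, as with all libraries. With the replicate block the count was 0 in each comparison, and the limma adjusted p of Clk4 was 0.295 at 1 h and 0.166 for 6 h against 1 h, so the block changed no call. Over the alternatives the limma adjusted p of Clk4 ranged from 0.0815 to 0.707 at 1 h and from 0.0628 to 0.515 for 6 h against 1 h. The median log2 change of members at 1 h was -0.109 and became 0.056 with median-of-ratios scaling. Leaving out 1 library gave medians from -0.237 (without control 3) to 0.003 (without control 2) at 1 h, from -0.179 to -0.004 at 6 h and from 0.020 to 0.103 for 6 h against 1 h, and the cause was not tested. Of 36 named changes 7 changed sign under at least 1 alternative, and 9 of 681 values moved by more than the SD between replicates. Changes of Clk1 and Clk4 at 1 h and between the times kept their sign under all 19. Precision is limited by 3 libraries a group: the members' 95% intervals at 1 h reached a median of 0.407 log2 units to either side.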
